A study of Mus musculus with 3 samples.

Results

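The genes described here encode the subunits of oxidative phosphorylation, the set of 5 protein complexes in the inner mitochondrial membrane that turns the oxidation of fuel into ATP. Members were chosen by gene symbol alone: every feature starting with mt-, the nuclear Nduf subunit symbols of complex I, Sdha to Sdhd of complex II, Uqcr of complex III, Cox4 to Cox8 of complex IV and Atp5 of complex V. The rule found 97 of 31053 features, of which 13 are encoded by the mitochondrial genome and 84 by the nucleus. The nuclear members comprised 37 of complex I, 4 of complex II, 8 of complex III, 18 of complex IV and 17 of complex V. The mitochondrial members comprised 7 of complex I, 1 of complex III, 3 of complex IV and 2 of complex V. Atp5o was listed under 2 identifiers, so that the 97 features carry 96 symbols.

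Stromal and vascular cells of mouse inguinal white fat were profiled with droplet capture of mRNA 3′ ends, in 1 library per genotype. The wild-type library came from TERT +/+ animals, and its title carries the letters PBS, which the labels do not explain. In the other libraries a floxed TERT gene (TERT fl/fl), which encodes the protein subunit of telomerase, was combined with Pdgfra-Cre or with Pdgfrb-Cre; these Cre drivers are named for receptors found on mesenchymal progenitors and on mural cells. Ages, sexes and the number of animals per library were not given, and dead and red blood cells had been depleted. With 1 library per genotype, a genotype and its library cannot be told apart, so no test between genotypes was made and intervals cover counting error only.

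The respiratory chain is built from 2 genomes. The mitochondrial genome is copied many times per cell and is transcribed as long precursors that are cut into shorter mRNAs. Each nuclear subunit has its own promoter, and its protein is imported into the organelle. Complex I oxidises NADH, complex II oxidises succinate and has no mitochondrially encoded subunit, complex III passes electrons to cytochrome c, complex IV reduces oxygen, and complex V makes ATP from the proton gradient. In droplet data, a high share of mitochondrial mRNA is also widely used as a sign of a damaged cell, which is why values are given with and without a limit on that share.

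The mitochondrial members lie so close together that some overlap. The stretches below are shown because reads within the capitals belong to both genes of a pair. Both were read from GENCODE M21 transcripts (GRCm38, plus strand of chromosome M), with the shared bases in capitals and 20 bases on either side. The mt-Atp8 and mt-Atp6 genes share 43 bases, which is 21.1% of mt-Atp8, and mt-Nd4l and mt-Nd4 share 7. The 2 windows are chrM:7907-7989 and chrM:10147-10193, and levels of mt-Atp8 and mt-Nd4l are uncertain at least to that extent.
mt-Atp8/mt-Atp6: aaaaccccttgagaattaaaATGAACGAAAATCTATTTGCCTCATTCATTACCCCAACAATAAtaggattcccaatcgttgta
mt-Nd4l/mt-Nd4: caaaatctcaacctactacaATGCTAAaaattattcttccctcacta

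The nuclear promoters are shown for the 4 nuclear subunits that stood past 2-fold in both T and B cells between the Pdgfrb-Cre and wild-type libraries (values follow). Of 83 nuclear member symbols, all 83 matched a RefSeq gene and 68 had a promoter window (GRCm38.p6, 250 bases before to 50 after a transcription start), giving 73 windows. The consensus motif of NRF1, searched on both strands, was present in 18 of the 73 member windows (24.7%) and in 4.6% of all 32851 windows. The ETS-type motif bound by GABPA, CCGGAAG, was present in 16 (21.9%) against 8.86% of all windows. The YY1 motif AAGATGGCG was present in 7 (9.59%) against 1.40%, and the ERR-type motif TCAAGGTCA in 2 (2.74%) against 0.423%. None of these motifs was required to stand apart from another, and a match describes letters only. In the windows below, capitals mark such matches: NRF1 in Ndufs5 and Atp5k, and ETS in Atp5k and Ndufs8. The Ndufb3 window held none of the 4 motifs. Their positions are chr1:58586147-58586446 (plus strand), chr4:123718137-123718436, chr5:108434350-108434649 and chr19:3912725-3913024 (minus strand).
Ndufb3: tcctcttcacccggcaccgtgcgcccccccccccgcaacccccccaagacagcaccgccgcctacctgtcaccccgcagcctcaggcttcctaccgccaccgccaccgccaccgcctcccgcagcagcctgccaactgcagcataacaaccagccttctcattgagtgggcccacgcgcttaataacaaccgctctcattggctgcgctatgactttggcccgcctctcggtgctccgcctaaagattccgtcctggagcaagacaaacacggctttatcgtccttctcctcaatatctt
Ndufs5: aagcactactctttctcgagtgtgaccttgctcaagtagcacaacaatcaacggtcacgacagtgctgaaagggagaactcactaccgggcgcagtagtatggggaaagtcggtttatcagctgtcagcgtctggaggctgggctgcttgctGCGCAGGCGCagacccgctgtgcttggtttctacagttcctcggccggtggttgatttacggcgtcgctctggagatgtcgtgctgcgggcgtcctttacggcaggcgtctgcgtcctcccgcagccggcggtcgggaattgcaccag
Atp5k: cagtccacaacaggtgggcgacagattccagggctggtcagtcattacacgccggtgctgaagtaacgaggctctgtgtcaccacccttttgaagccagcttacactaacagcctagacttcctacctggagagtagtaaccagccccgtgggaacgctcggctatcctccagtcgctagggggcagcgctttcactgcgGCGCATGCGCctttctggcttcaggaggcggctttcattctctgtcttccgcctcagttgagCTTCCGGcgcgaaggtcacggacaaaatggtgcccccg
Ndufs8: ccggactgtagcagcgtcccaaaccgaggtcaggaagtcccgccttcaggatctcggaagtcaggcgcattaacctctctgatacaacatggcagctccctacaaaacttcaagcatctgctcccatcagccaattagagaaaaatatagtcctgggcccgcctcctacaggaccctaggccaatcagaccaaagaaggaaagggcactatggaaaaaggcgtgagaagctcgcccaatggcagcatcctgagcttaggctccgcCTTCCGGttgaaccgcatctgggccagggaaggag

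The libraries held 13352288 (wild type), 14438471 (Pdgfra-Cre) and 30826733 (Pdgfrb-Cre) UMIs, and at most 2 cell barcodes were shared by any pair. After barcodes with at least 500 genes and at most 15% mt- UMIs were kept and likely doublets removed, 2665, 1410 and 3907 cells remained. Lineages were named from fixed markers after clustering without the members, so no lineage rests on an oxidative phosphorylation gene. Tert gave 16, 7 and 10 UMIs over all barcodes of the wild-type, Pdgfra-Cre and Pdgfrb-Cre libraries, too few to check the genotype labels. Median UMIs per cell differed between libraries within a lineage, being 1544, 9677 and 10537 in stromal progenitors, and haemoglobin made up 0.0459%, 0.334% and 0.000231% of UMIs.

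Mitochondrial mRNA took a smaller share of UMIs in the Pdgfra-Cre library than in the wild-type library, in each of the 3 lineages with at least 100 cells in both, while their pooled nuclear subunit mRNA differed less. The 1 stromal cluster that all libraries shared was an exception, described with the clusters. Depth differed between the libraries too, and its relation to the mt- share is given with the single cells. Over all kept cells the 13 mt- genes made up 5.26% of UMIs in the wild-type library, 2.56% in the Pdgfra-Cre library and 4.57% in the Pdgfrb-Cre library. In stromal progenitors, the fibroblast-like cells that include fat cell precursors, the shares were 4.08%, 1.94% and 2.86%. The Pdgfra-Cre to wild-type ratio of the stromal share was 0.476 (95% interval 0.471 to 0.482), and the Pdgfrb-Cre ratio was 0.701 (0.692 to 0.709). Stromal cells had the lowest share of the 4 lineages with at least 50 cells in each library, in all 3 libraries.

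In T cells the mt- share was 5.22% in the wild-type library, 3.43% in the Pdgfra-Cre library and 5.65% in the Pdgfrb-Cre library. In blood endothelial cells it was 5.32%, 3.56% and 3.45%, and in macrophages or monocytes 5.30%, 2.48% and 3.66%. Pooled over clusters, the low share in the Pdgfra-Cre library was thus seen in immune, endothelial and stromal cells. In the stromal cluster shared by all libraries, described below, it was not seen. The ratio to wild type was 0.656 (0.650 to 0.662) in T cells and 0.669 (0.660 to 0.677) in endothelial cells. The Pdgfrb-Cre library stood below wild type in endothelial, stromal and myeloid cells but above it in T cells, at 1.08 (1.08 to 1.09). B cells, compared between the wild-type and Pdgfrb-Cre libraries, had shares of 6.07% and 5.83%.

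**Figure D1:**
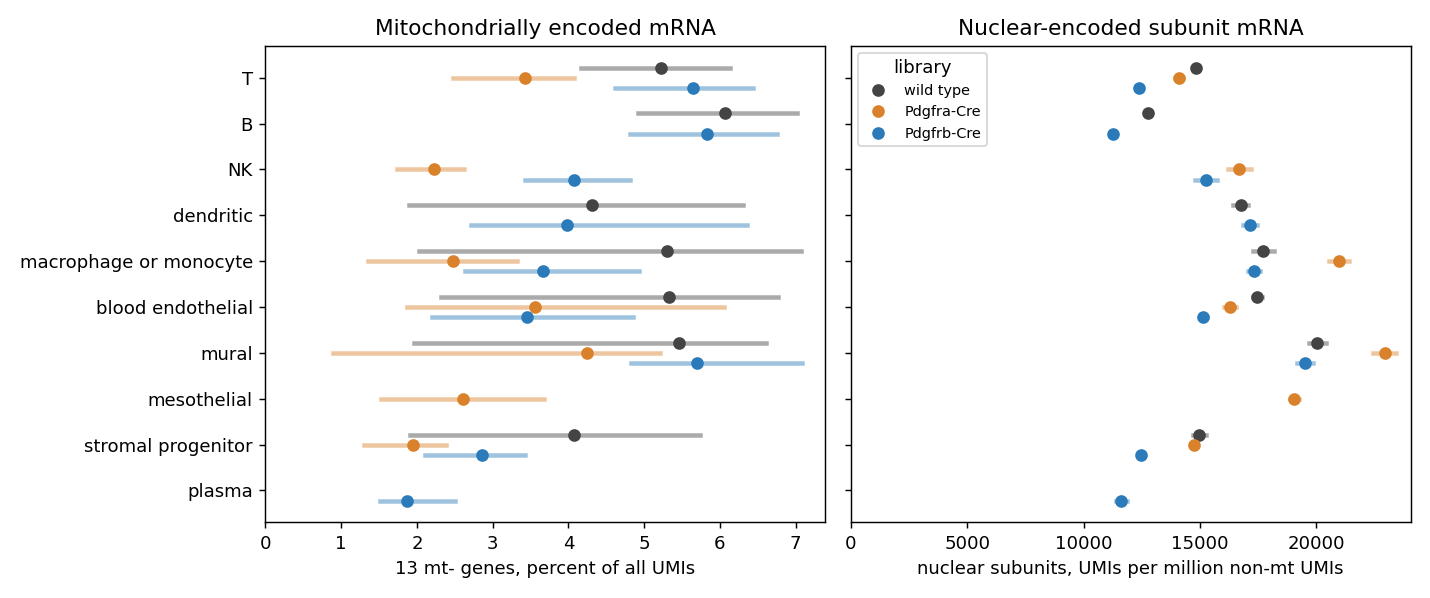
Left, the 13 mt- genes as a percentage of all UMIs in each lineage and library with at least 30 cells (points, pooled cells; bars, interquartile range of single cells). Right, nuclear subunit CPM of non-mitochondrial UMIs (points) with 95% Poisson intervals (bars). Orange points for the Pdgfra-Cre library lie left of the grey wild-type points in every lineage of the left panel that has both, with stromal shares of 1.94% and 4.08%.

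Stromal progenitors fell into clusters that were split by library, which limits what their sums compare. Cluster 17 held 509 Pdgfra-Cre cells, 1 Pdgfrb-Cre cell and no wild-type cell, and had the lowest share, 1.87%. Cell make-up differed too: of 151 barcodes in the mesothelial cluster, 148 came from the Pdgfra-Cre library. Whether the libraries held like pieces of tissue was not tested, so pooled stromal values may compare unlike stroma. Cluster 16 was the 1 stromal cluster with at least 30 cells from each library, and there the shares were 4.46% (35 wild-type cells), 4.42% (85 Pdgfra-Cre cells) and 3.47% (221 Pdgfrb-Cre cells). Within this cluster the Pdgfra-Cre cells were thus close to wild type in their mt- share, at a median depth of 1540 UMIs against 2934. Of the T cell clusters shared by all libraries at that size, cluster 7 had shares of 5.42%, 3.39% and 6.26% and cluster 10 had 5.02%, 3.08% and 5.11%, and in the shared endothelial cluster 8 they were 5.95%, 2.93% and 3.1%. Wild-type stromal cells also carried more RNA of T cell markers. The 11 markers summed to 305 CPM, against 9.11 and 23.7 CPM in the Pdgfra-Cre and Pdgfrb-Cre libraries. Of them 11, 9 and 10 were detected. The 10 B cell markers summed to 1114, 903 and 821 CPM, with 10, 4 and 10 detected. As 4 markers gave 903 CPM in the Pdgfra-Cre library, this sum was not read as RNA of B cells. The part of T cell RNA in the mt- shares was not tested.

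Within the mitochondrial mRNA, the shares of mt-Co1, mt-Co3 and mt-Atp6 differed, for each pair of libraries, in the same direction in each lineage compared. Those of mt-Cytb and mt-Atp8 did so against wild type but not between the Cre libraries. The shares of mt-Nd3, mt-Nd4 and mt-Nd5 went both ways across lineages in at least 1 pair of libraries. mt-Co1, the catalytic subunit of complex IV, made up 13.4% of mt- UMIs in wild-type stromal cells, 22% in the Pdgfra-Cre library and 15.3% in the Pdgfrb-Cre library. In T cells its share was 12.5%, 19.8% and 13.8%, and in blood endothelial cells 13.5%, 21.1% and 16.7%. The Pdgfra-Cre values, 19.5% to 25% over 7 lineages, lay above all 7 wild-type lineages (11.4% to 17.4%) and all 9 Pdgfrb-Cre lineages (13.6% to 18.9%). mt-Co3, another core subunit of complex IV, went the opposite way, at 20.8%, 14.6% and 18.9% in stromal cells and 21.9%, 17.1% and 19.6% in T cells.

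The mt-Co3 to mt-Co1 ratio therefore ordered the libraries within each lineage. It was 1.56 in wild-type stromal cells, 0.664 in the Pdgfra-Cre library and 1.24 in the Pdgfrb-Cre library. Over lineages it ran from 1.28 to 1.97 in the wild-type library, from 0.575 to 0.863 in the Pdgfra-Cre library and from 0.921 to 1.45 in the Pdgfrb-Cre library. The Pdgfra-Cre range did not meet the other ranges, whereas those of the wild-type and Pdgfrb-Cre libraries overlapped. The same order held outside the kept cells: barcodes with fewer than 500 genes had ratios of 1.96, 0.881 and 1.47, and barcodes above 15% mt- UMIs had 2.08, 0.854 and 1.52. In cluster 16, where the stromal mt- shares were alike in the wild-type and Pdgfra-Cre libraries, mt-Co1 still made up 14.5%, 20.5% and 15.1% of mt- UMIs.

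**Figure D2:**
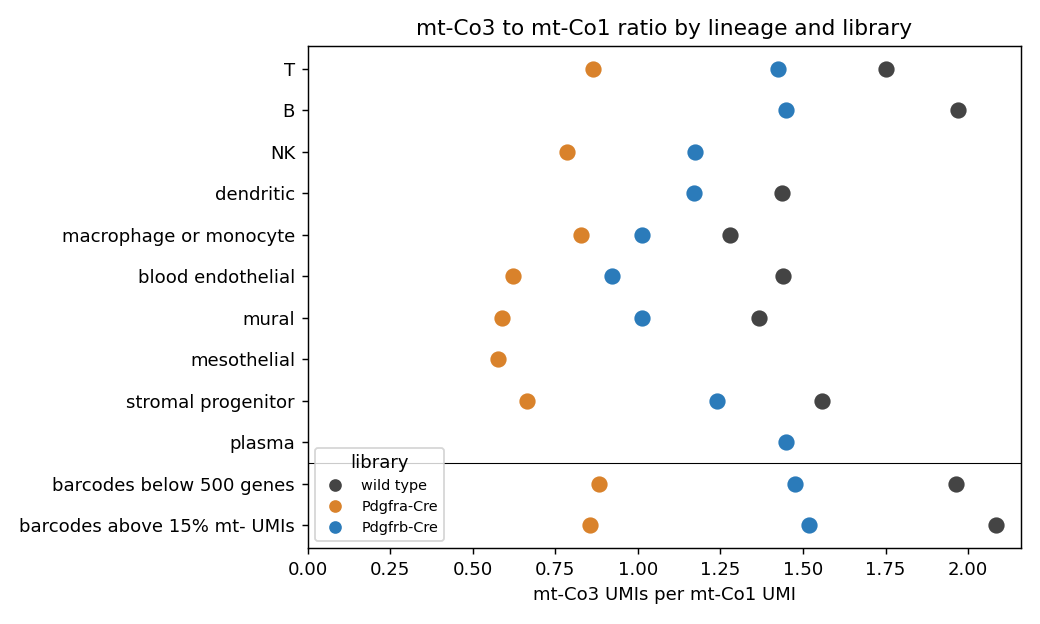
mt-Co3 UMIs per mt-Co1 UMI in each lineage and library with at least 30 cells, and, under the line, in barcodes left out of the lineages. Where these libraries are present in a row with others, the Pdgfra-Cre point lies lowest and the wild-type point highest, from 0.575 in Pdgfra-Cre mesothelial cells to 2.08 in wild-type barcodes above 15% mt- UMIs.

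Levels of the single mt- genes, given as CPM of all UMIs (counts scaled to the total of the cells summed), showed how uneven the difference was. In stromal cells mt-Co3 stood at 8503 (wild type), 2842 (Pdgfra-Cre) and 5404 (Pdgfrb-Cre), and mt-Atp6, a proton-channel subunit of complex V, at 8577, 3309 and 6231. mt-Co1 stood at 5456, 4281 and 4362. Between the Pdgfra-Cre and wild-type stromal cells, 7 mt- genes and no nuclear member were at least 2-fold lower, and none was higher, counting features with at least 50 CPM in either library. Those 7 were mt-Co2, mt-Co3, mt-Atp6, mt-Atp8, mt-Nd3, mt-Nd5 and mt-Cytb, with mt-Co3 the lowest at 0.334 (0.325 to 0.344) of wild type. Of all 3465 features compared there, 8.57% were that much lower and 13% higher.

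In T cells, mt-Nd3, a small core subunit of complex I, was the 1 member past the fold between the Pdgfra-Cre and wild-type libraries, at 542 against 1105 CPM (background 3.05% lower). In endothelial cells mt-Nd3, mt-Atp8 and mt-Co3 were past it (background 2.59% lower), mt-Co3 at 4659 against 10361. mt-Co1 was level in both lineages, at 6799 against 6532 in T cells and 7502 against 7198 in endothelial cells. mt-Nd6, the only member read from the other strand of the mitochondrial genome, was the rarest mt- gene, with 41.3, 40.8 and 23.5 CPM in stromal cells.

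mt-Atp8, the shortest mt- member, was lower in both Cre libraries than in wild type in stromal, T and endothelial cells. Its level was 278, 115 and 103 CPM in stromal cells, 288, 175 and 132 CPM in T cells and 314, 145 and 142 CPM in blood endothelial cells. In each of the 4 lineages compared between Pdgfrb-Cre and wild type it was past 2-fold lower, from 0.370 (0.317 to 0.434) of wild type in stromal cells to 0.459 (0.424 to 0.498) in T cells. Its neighbour mt-Atp6 was not past the fold in any of them, and in T cells it stood at 13343 against 11659. As the genes overlap by 43 bases on the same strand, these counts need not stand for separate mRNAs. mt-Nd5 was the other mt- gene past 2-fold lower in Pdgfrb-Cre stromal cells, at 263 against 593. All 12 mt- genes compared there were lower. Between the Cre libraries, mt-Nd3 was past 2-fold higher in Pdgfrb-Cre T cells (1300 against 542, background 2.79% higher and 7.32% lower). In stromal cells mt-Nd3 was past it too (609 against 292, background 11% higher and 8.97% lower). In endothelial cells mt-Nd6 was past 2-fold lower (32.5 against 69.2, background 2.2% higher and 2.45% lower).

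**Figure D3:**
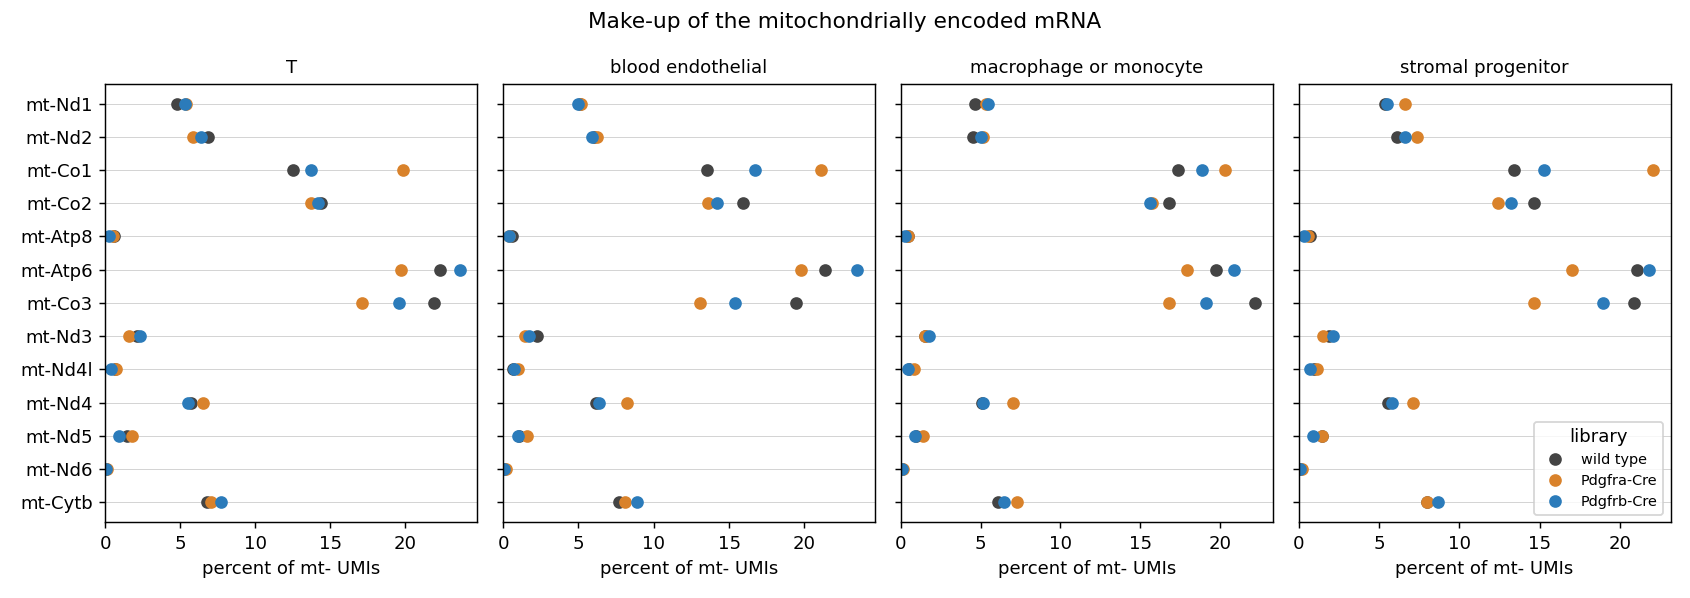
Share of each of the 13 mt- genes, in genome order, among the mt- UMIs of 4 lineages (points, 1 per library). In all 4 panels the Pdgfra-Cre point lies furthest right for mt-Co1 and furthest left for mt-Co3, as with 22% and 14.6% in stromal cells.

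Nuclear subunit mRNA, given as CPM of non-mitochondrial UMIs, differed less between the Pdgfra-Cre and wild-type libraries than mt- mRNA did in the pooled lineages, and was lower in the Pdgfrb-Cre than in the wild-type library in stromal, T, endothelial and B cells. In stromal cells the 84 nuclear members summed to 14963, 14746 and 12476 CPM. In T cells they summed to 14821, 14087 and 12392 CPM, in blood endothelial cells to 17470, 16284 and 15151 CPM, and in B cells to 12769 (wild type) and 11260 CPM (Pdgfrb-Cre). The Pdgfra-Cre to wild-type ratio in stromal cells was 0.986 (0.966 to 1.01), an interval that includes 1. The Pdgfrb-Cre ratio was 0.834 (0.817 to 0.851) in stromal cells, 0.836 (0.828 to 0.845) in T cells, 0.867 (0.854 to 0.881) in endothelial cells and 0.882 (0.868 to 0.895) in B cells. Macrophages had 17728, 20970 and 17321 CPM, and dendritic cells were slightly higher in the Pdgfrb-Cre than in the wild-type library, at 17132 against 16747 CPM. Within clusters shared by all libraries the picture differed from the pooled one. In stromal cluster 16 nuclear members summed to 14782, 12743 and 13047 CPM, and in T cell cluster 10 to 19044, 14507 and 15807 CPM, with the Pdgfra-Cre value lowest in both. In T cell cluster 7 they summed to 15282, 14402 and 12246 CPM, with the Pdgfrb-Cre value lowest.

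Taken by complex, 19 of 20 lineage and complex sums were lower in the Pdgfrb-Cre than in the wild-type library, with ratios from 0.646 to 1.02. Against the Pdgfra-Cre library 14 of 15 were lower. Complex II, the smallest group, stood at 224, 186 and 145 CPM in T cells. Complex I stood at 4171, 4073 and 3082 CPM in T cells and 5049, 5191 and 4033 CPM in stromal cells. Of 67 nuclear members measured in all 4 lineages, 43 were lower in the Pdgfrb-Cre library in each of them and 3 were higher in each. The share of all features that did so was not counted, so these counts have no background. The counts of sums by complex have none either, and both describe 1 library against another. The median log2 ratio of nuclear members to wild type was -0.28 in stromal cells, where all features had a median of 0.01. It was -0.37 in T cells, against 0.07, -0.33 in B cells, against 0.12, and -0.21 in endothelial cells, against -0.0008.

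Few nuclear members passed 2-fold, and those that did were lower in the Pdgfrb-Cre library. In T cells Ndufb3, Ndufs5, Ndufs8 and Atp5k stood past it against wild type, with 7.86% of all features compared that much lower and 12.5% higher. In B cells these 4 were joined by Ndufa8, Ndufa5 and Ndufs4 (background 7.24% lower and 13.3% higher). In stromal cells Ndufs8 was the 1 nuclear member (background 5.37% lower and 12.1% higher), and in endothelial cells there was none (background 3.41% lower and 7.47% higher). In T and B cells the lower members were 4 of 69 and 7 of 70 compared, near these backgrounds. In stromal and endothelial cells they were 1 of 71 and 0 of 72, below them, and no nuclear member was past the fold in the higher direction in any of the 4 lineages. Between the Cre libraries, Ndufa3 and Ndufs7 were past 2-fold lower in Pdgfrb-Cre T cells, at 76.7 against 168 CPM and 30.4 against 69.2 CPM. They were 2 of 68 compared, below the background of 7.32% lower (2.79% higher). For that pair 0 nuclear members were past the fold in stromal or endothelial cells.

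Atp5k, subunit e of ATP synthase, stood at 215, 159 and 90.1 CPM in T cells of the wild-type, Pdgfra-Cre and Pdgfrb-Cre libraries, and at 166 and 78.1 CPM in B cells of the wild-type and Pdgfrb-Cre libraries. The Pdgfrb-Cre value was the lowest in stromal cells too, at 199, 199 and 117 CPM. Ndufs8, an iron-sulfur subunit in the arm of complex I that carries electrons, stood at 61.3, 39.8 and 28.4 CPM in T cells and 63.2, 54.7 and 28.6 CPM in stromal cells. In macrophages it was level, at 91.4, 77.1 and 88.9 CPM with overlapping intervals. Ndufb3, an accessory subunit of the membrane arm, stood at 106, 83.2 and 46.3 CPM in T cells and 92.4 and 39.0 CPM in B cells. Outside lymphocytes its Pdgfrb-Cre levels were close to wild type, at 94.5 against 95.4 CPM in stromal cells and 105 against 116 CPM in endothelial cells. Ndufs5, another accessory subunit, stood at 91.1, 86.3 and 43.2 CPM in T cells and 215, 242 and 226 CPM in endothelial cells. Lymphocytes were split by library into different clusters: cluster 2 held 383 of 635 wild-type T cells, cluster 15 held 768 of 1741 Pdgfrb-Cre T cells, and B cells lay in cluster 3 (608 of 618 wild-type cells) or cluster 5 (932 of 954 Pdgfrb-Cre cells). The part of that split in these levels was not tested.

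Between lineages, the libraries served as 3 blocks, and the balance of the 2 genomes was compared first. Mitochondrial UMIs per nuclear subunit UMI numbered 3.72, 2.52 and 4.83 in T cells of the wild-type, Pdgfra-Cre and Pdgfrb-Cre libraries. The ratio was 3.22, 2.27 and 2.36 in blood endothelial cells, 3.16, 1.21 and 2.19 in macrophages and 2.84, 1.34 and 2.36 in stromal cells. T cells were highest of these 4 lineages in all 3 libraries, and B cells were higher still, at 5.06 and 5.50 in the wild-type and Pdgfrb-Cre libraries. In this ratio the scaling of the libraries cancels. The order did not hold in each cluster: T cell cluster 10 had 2.78, 2.19 and 3.41, below the endothelial values in the wild-type and Pdgfra-Cre libraries.

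Complex I took a larger part of the nuclear subunit mRNA in stromal and endothelial cells than in lymphocytes. Its share was 33.7%, 35.2% and 32.3% in stromal cells, 32.8%, 32.8% and 31.7% in endothelial cells and 28.1%, 28.9% and 24.9% in T cells. Complex V was the larger part in T cells, at 32.0%, 30.9% and 32.8%, against 28.4%, 28.0% and 28.1% in stromal cells. The T cell and stromal values did not overlap for either complex. Macrophages had complex I shares of 29.8%, 28.3% and 28.7%, nearer to T cells.

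**Figure D4:**
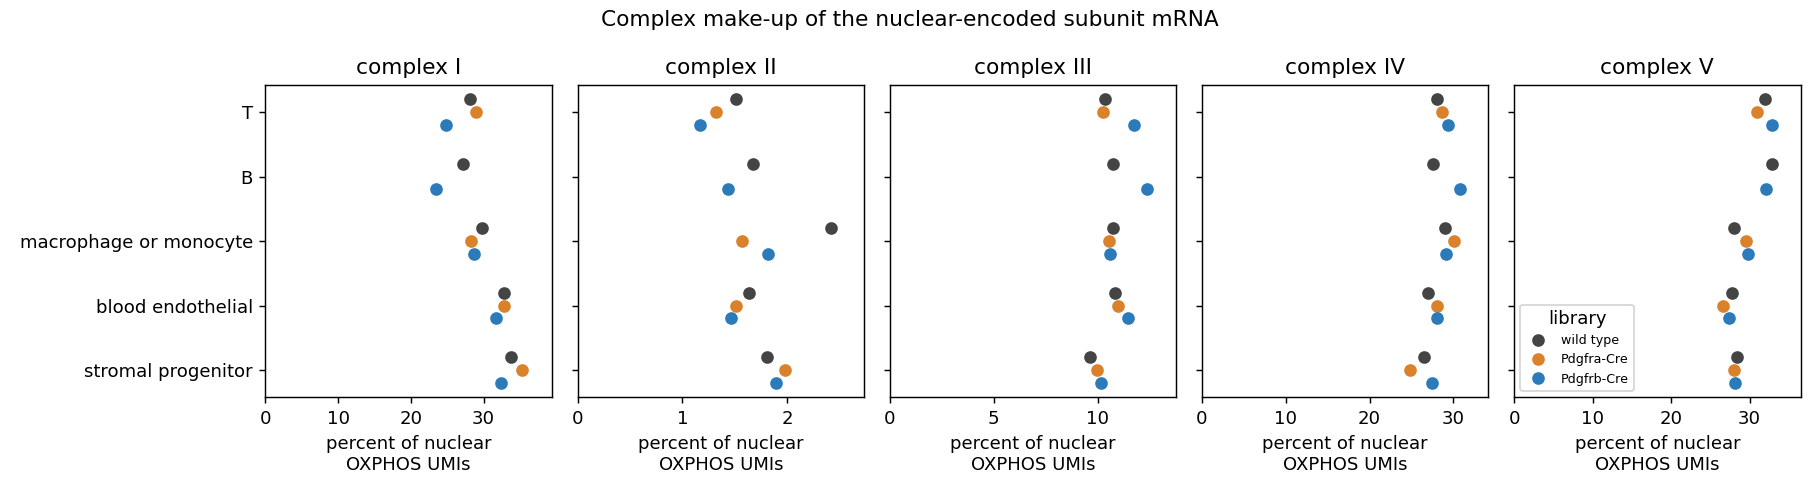
Percentage of nuclear subunit UMIs that belong to each complex, for 5 lineages and each library with at least 30 cells. Stromal and endothelial points lie right of the T and B cell points in the panel for complex I (35.2% in Pdgfra-Cre stromal cells, 24.9% in Pdgfrb-Cre T cells), and left of them in the panel for complex V.

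In edgeR's quasi-likelihood test on UMIs summed per lineage and library (11210 features tested, TMM scaling), mt- genes had lower estimates in each lineage than in T cells, a direction that for endothelial cells depends on the scaling. As plain shares of UMIs, given above, endothelial cells exceeded T cells in the wild-type and Pdgfra-Cre libraries, and macrophages did in the wild-type library. Of 13 mt- genes, 11 fell in stromal cells, 10 in macrophages and 8 in endothelial cells, none rose, and all 13 had negative estimates in each contrast. Of all features tested 24.4%, 18.4% and 20.9% fell in these contrasts. mt-Atp6 fell by 1.22 on the log2 scale in stromal cells (SE 0.25, adjusted p = 0.00142), lower than in T cells in all 3 libraries, and mt-Co3 by 1.21 (SE 0.25, adjusted p = 0.0015). These counts depended on single libraries. Without the Pdgfrb-Cre library edgeR called 4 mt- genes lower in stromal cells and 0 in macrophages and endothelial cells, and without the wild-type library 11, 3 and 2. On library totals without TMM factors, 10, 3 and 1 were called lower in stromal cells, macrophages and endothelial cells, and 1, 0 and 3 of the 13 had estimates above 0. T cell sums were 36.1% to 43.3% ribosomal protein UMIs and had TMM factors from 0.689 to 0.937. That change of scale moved the median of all features by 0.56 (endothelial), 0.36 (stromal) and 0.38 (macrophage) on the log2 scale.

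Nuclear members went both ways. Against T cells, 11 of 78 tested rose and 16 fell in endothelial cells, and 11 rose and 10 fell in stromal cells. Of all features tested, 28.7% and 31% rose in these contrasts, and 20.9% and 24.4% fell. On library totals the nuclear splits were 30 higher and 1 lower, and 24 higher and 4 lower, so these directions depend on the scale. Without the Pdgfrb-Cre library they were 7 and 0, and 2 and 4. Without the wild-type library 8 fell in endothelial cells, and without the Pdgfra-Cre library 3 rose in stromal cells. On the TMM scale with all libraries, 8 of 16 complex V members fell and 1 rose in endothelial cells. There 6 of 37 complex I members rose and 4 fell. In stromal cells 8 of 37 complex I members rose and 2 fell on that scale. The counts by complex share the limits above, as on library totals 1 nuclear member of any complex fell in endothelial cells. That number was 0 without the Pdgfrb-Cre library on the TMM scale.

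Some single subunits stood out, with estimates given here on the TMM scale only. Ndufa8, an accessory subunit of complex I, rose by 1.5 in endothelial against T cells (SE 0.21, adjusted p = 0.000114) and by 1.25 against stromal cells (SE 0.21, adjusted p = 0.000792). Cox5a, an accessory subunit of complex IV, fell by 1.33 in stromal against T cells (SE 0.21, adjusted p = 0.000198), and was higher in endothelial than in stromal cells by 1.15 (SE 0.21, adjusted p = 0.00124). Uqcrh, the hinge protein of complex III and its most abundant member, fell in all 3 lineages against T cells. The estimates were lower by 1.05, 1.01 and 0.68 in endothelial, stromal and myeloid cells. On library totals the median of all features moved up by 0.38 in the myeloid contrast, and the Uqcrh estimate on that scale is not given. Uqcrb and Uqcr11, small subunits of the same complex, rose in all 3, Uqcr11 by 1.06, 0.65 and 1.08. Between endothelial and stromal cells, 5 nuclear members rose and 2 fell (Ndufa13 and Ndufv3), with 14.2% and 15.4% of all features doing so.

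In macrophages or monocytes complex II subunits were among those that rose. Against T cells 12 of 78 nuclear members rose and 1 fell, with 19.8% of all features rising and 18.4% falling. On library totals 34 members rose and 0 fell. Among the 12 on the TMM scale were 3 of the 4 complex II subunits: Sdhc, a membrane anchor, by 1.16 (SE 0.28, adjusted p = 0.00736), Sdhd, the other anchor, by 0.69 and Sdhb, the iron-sulfur subunit, by 0.62. Summed complex II levels were 429, 329 and 314 CPM in macrophages against 224, 186 and 145 CPM in T cells, without overlap. Without the Pdgfra-Cre or the Pdgfrb-Cre library, edgeR called 6 and 4 nuclear members higher.

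**Figure D5:**
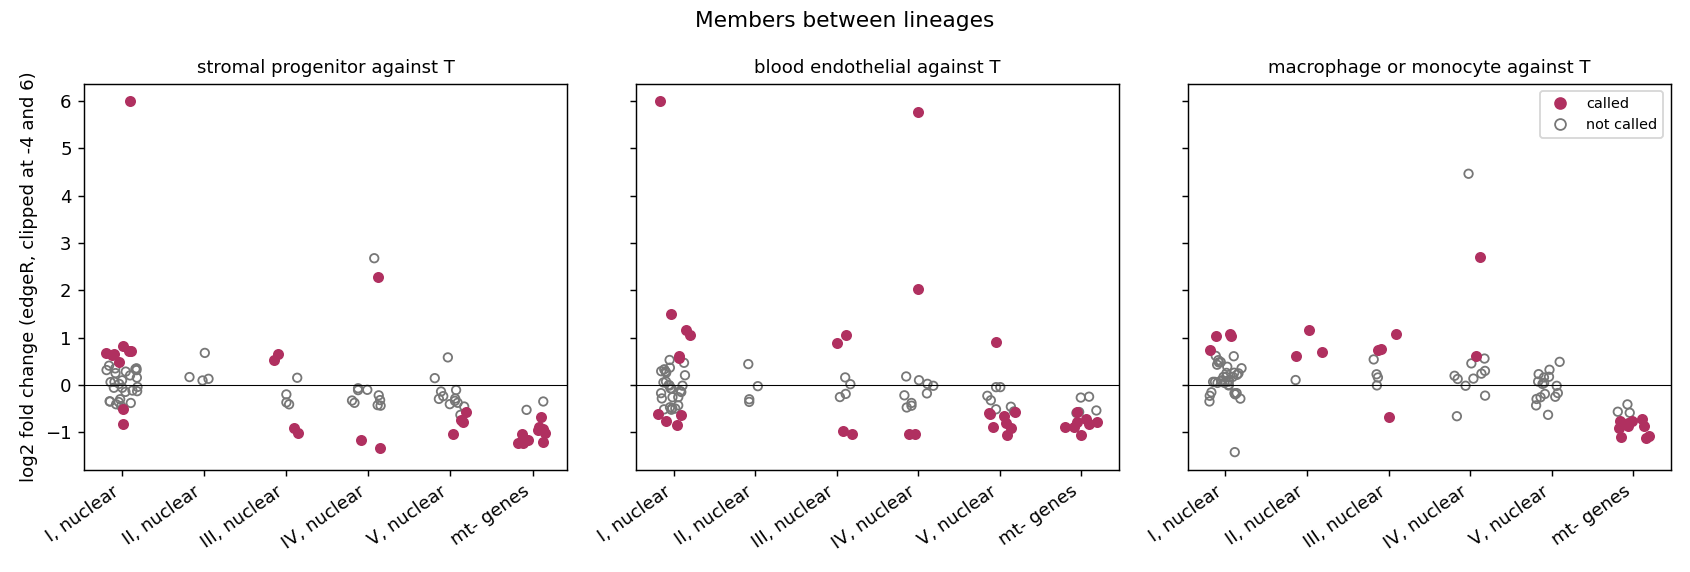
edgeR log2 fold changes of members in 3 lineages against T cells, by complex and genome (points, members; filled, adjusted p below 0.05; sideways scatter has no meaning). On the TMM scale plotted, the 13 mt- genes lie below 0 in each panel (on library totals 3 lie above it in endothelial and 1 in stromal cells), and all 4 complex II members lie above it for macrophages or monocytes.

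Several complex I and IV subunits have a common and a restricted isoform. Cox4i1, the common form of subunit 4, was the most abundant nuclear member, at 679, 541 and 660 CPM in stromal cells, with 701, 581 and 662 CPM in T cells. Cox4i2, the form known from hypoxic and smooth muscle settings, was highest in mural cells, at 49.5, 105 and 35.8 CPM. It stood at 3.12, 6.73 and 14 CPM in endothelial cells (6, 6 and 29 UMIs) and had 1 UMI in all T cells together. Ndufa4l2, a hypoxia-linked relative of Ndufa4, followed it, at 396, 801 and 418 CPM in mural cells and 14, 30.3 and 48.6 CPM in endothelial cells. The 11 mural markers summed to 751, 924 and 1316 CPM in endothelial cells, higher in the same order of libraries, and their part in these values was not tested. edgeR called Ndufa4l2 higher than in T cells in endothelial (adjusted p = 2.42e-05) and stromal cells (adjusted p = 3.56e-05). T cells held 1 UMI of it in all, so no fold is given. Ndufa4 itself, which is grouped with complex I by its symbol although the protein is found in complex IV, stood at 414, 368 and 240 CPM in endothelial cells.

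Among the other families, Cox6b2, known as a testis form, had 76.2 CPM in Pdgfra-Cre mesothelial cells, against 7.86 CPM in stromal cells of that library and 1.22 CPM in its T cells. Cox7a1 and Cox8b, forms of heart, muscle and brown fat, stayed at or below 8.06 and 5.18 CPM in stromal cells. Cox7b2 and Cox8c, together with the second Atp5o identifier, had no UMI in kept cells of any library. Cox7a2l, which helps to join complexes III and IV, stood at 673, 413 and 567 CPM in T cells and 399, 203 and 333 CPM in stromal cells, lowest in the Pdgfra-Cre library in both. The 3 genes for the c subunit of ATP synthase differed in level: Atp5g2 stood at 461, 396 and 345 CPM in T cells, Atp5g1 at 216, 182 and 168 CPM and Atp5g3 at 137, 136 and 173 CPM.

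Over all cells the limit on mt- UMIs removed few barcodes, but it removed more in some lineages. Outside T cells, it left the order of the wild-type and Pdgfrb-Cre libraries as it was in the values given here. Without it the shares were 5.86%, 2.95% and 4.70% over all cells, 4.53%, 1.98% and 2.93% in stromal cells and 5.79%, 3.64% and 5.74% in T cells. In T cells the Pdgfrb-Cre share was above wild type with the limit and just under it without. Barcodes above 15% made up 6.69%, 5.05% and 2.57% of barcodes with at least 500 genes. They made up 4.95%, 16.8% (25 of 149) and 0.990% of blood endothelial barcodes and 8.85%, 17.9% and 18.9% of mural barcodes. Endothelial mt- shares without the limit are not given here, and the Pdgfra-Cre share with it leaves those barcodes out. Even outside their mt- UMIs these barcodes differed: nuclear subunit mRNA stood at 13247, 14572 and 11531 CPM, against 16088, 16092 and 14101 CPM below the limit. In T cells the ratio of the former to the latter was 0.648 (0.599 to 0.700) in the wild-type library and 0.502 (0.444 to 0.566) in the Pdgfrb-Cre library. Ribosomal protein UMIs were also fewer there, at 14.2% against 43.3% in wild-type T cells.

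Across single cells with at least 2000 UMIs, the mt- share and the nuclear subunit level were nearly unrelated in most lineages. In T cells Spearman's rho was -0.08, -0.08 and 0.04 over 562, 257 and 1715 cells. In stromal cells it was 0.15, -0.06 and -0.01 over 80, 552 and 545 cells. Wild-type mural cells (0.49, 94 cells) and Pdgfrb-Cre macrophages (-0.30, 115 cells) departed from this. Both measures come from the same cells and share their depth, so these values are descriptive. The relation of the mt- share to UMIs per cell differed by lineage and library. Its rho was 0.02, -0.32 and -0.31 in stromal cells and 0.06, -0.29 and -0.12 in endothelial cells. In T cells it was -0.10, 0.31 and 0.08. The part of depth in the differences between libraries was not tested.

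Genes that serve the same organelle were followed as lists, whose counts stand against shares of all features that rose and fell of 28.7% and 20.9% in endothelial, 31% and 24.4% in stromal and 19.8% and 18.4% in macrophage contrasts with T cells. Mitochondrial ribosomal proteins, which translate the mt- mRNAs, had 19 of 77 tested members lower and 4 higher in endothelial than in T cells (median -0.18, all features 0.10), and 13 lower and 8 higher in stromal cells. Between libraries their median log2 ratio of Pdgfrb-Cre to wild type was -0.62 in T cells (20 genes) and -0.53 in stromal cells (24 genes). Factors that maintain and transcribe mitochondrial DNA had 4 of 16 lower and 2 higher in stromal than in T cells, among them Mterf1a, lower by an estimate of -2.99 (adjusted p = 0.000374). In stromal cells complex assembly factors had 5 of 46 higher and 6 lower, and tricarboxylic acid cycle enzymes 2 of 18 higher (Idh2 and Fh1) and 2 lower, shares below those of all features in both directions. Glycolytic enzymes had 8 of 15 lower and 3 higher, with the muscle-type hexokinase Hk2 rising by 3.03 (SE 0.54, adjusted p = 0.000552). Of the mitochondrial stress response genes, the chaperonins Hspe1 and Hspd1 fell and the transcription factor Atf5 rose by 4.48 (SE 0.23, adjusted p = 1.01e-07). In macrophages 4 of 8 antioxidant genes rose and none fell, against 19.8% and 18.4% of all features, with Gpx1, a peroxidase, by 2.43 (SE 0.25, adjusted p = 2.15e-05). Carriers and uncoupling proteins had 5 of 8 lower and 2 higher in stromal cells, and of the biogenesis regulators 3 of 12 were lower and 2 higher. Of 6 subunits outside the symbol rule, 3 were lower and 1 higher, the ATP synthase inhibitor Atpif1 by 1.20 (SE 0.20, adjusted p = 0.000263).

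Regulators of mitochondrial gene expression were sparse. Ppargc1a, a coactivator of mitochondrial biogenesis, had 171 UMIs in Pdgfra-Cre stromal cells, or 30.6 CPM (26.1 to 35.5), against 1 UMI in wild-type and 13 UMIs (2.19 CPM, 1.16 to 3.74) in Pdgfrb-Cre stromal cells. Those Pdgfra-Cre stromal cells were also the ones with the lowest mt- share, and 509 of the 621 belonged to cluster 17. In the same cells Tfam, which packages mitochondrial DNA, was at 28.2, 34.8 and 20 CPM. Nrf1, a transcription factor of nuclear subunit genes, was at 24.2, 23.8 and 18.8 CPM. Esrra, a nuclear receptor that acts with Ppargc1a, stood at 14.8, 13.8 and 9.08 CPM. Ucp2, a carrier of the uncoupling protein family, stood at 53.8, 2.14 and 3.70 CPM in stromal cells, with 235, 144 and 70.9 CPM in T cells, and the T cell markers given above were highest in the same stromal sums. Ucp1, the uncoupling protein of brown fat, had no UMI in stromal cells of any library, which allows up to 4.96, 0.659 and 0.621 CPM (upper 95% Poisson limits).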

How the data were processed

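UMI counts per gene and barcode were deposited by the authors as 1 filtered matrix per library, made with Cell Ranger 3.1.0 and STAR 2.6 on mm10, per the submitters' processing notes; nothing else was normalized. Members and lists were chosen with earlier results of these data known. Barcodes with at least 500 genes were clustered (scanpy 1.11.5, Leiden resolution 1) on genes other than members, ribosomal protein, Y-linked genes and Xist; Scrublet doublets (0.8% per 1000 cells) and barcodes above 15% mt- UMIs were left out. Clusters were named by a marker score above 0.5 with at least 3 markers, else left unnamed. UMIs were summed per lineage and library; mt- genes are per all UMIs, nuclear members are CPM of non-mt- UMIs. Between libraries, ratios have exact 95% conditional intervals, for lineages with at least 100 cells in both. Between lineages with at least 50 cells per library, edgeR 4.0.16 (R 4.3.3; glmQLFTest, library as block, adjusted p below 0.05, Benjamini-Hochberg over all features) was used; whether the libraries are separate animals is not given, so p-values measure only the spread between these libraries. In simulated data for endothelial against T cells (10579 genes, 200 changed) it called 24.5% of log2 changes of 1, 92.2% of 2 and 0.029% of unchanged genes. The simulation used 1 profile for all sums, a fixed spread and no difference between libraries other than depth. It therefore cannot show the rate of false calls in the real sums, where far more features differed. Named genes were all mt- genes, the isoform families, the most abundant members, the 5 strongest called members per direction and contrast, and all members past 2-fold between libraries. DESeq2 1.42.0 and other settings were tried as alternatives.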

Additional observations from a re-analysis of the deposited data

Results flagged for a closer look

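The mt- share of UMIs differed in direction between lineages under the same comparison of libraries. The ratio of the Pdgfrb-Cre to the wild-type library was 1.08 in T cells and 0.701 in stromal progenitors, and this difference was not tested, since each side is 1 library. Barcodes with fewer than 500 genes, which no comparison of lineages used, carried a higher mt- share in the Pdgfrb-Cre library, at 29.6% against 13.3% in the wild-type library and 4.36% in the Pdgfra-Cre library.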

How the results depend on the processing

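No paired analysis was possible because each genotype has 1 library. Of 1299 alternative values for 105 results, most of them counts or single genes, 1020 kept direction and side of the threshold or stayed within the allowed range. Some medians and shares did turn: on library totals the nuclear median went from -0.18 to 0.37 (endothelial against T), -0.11 to 0.25 (stromal against T) and -0.07 to 0.13 (endothelial against stromal), without the Pdgfra-Cre library it went from 0.16 to -0.05 (macrophage against T), and the T cell mt- share in Pdgfrb-Cre was 5.74% against 5.79% in wild type without the mt- limit. With a 1.5-fold limit in place of 2-fold, members past it numbered 35 (Pdgfra-Cre against wild type, 11 as reported), 75 (Pdgfrb-Cre against wild type, 17) and 42 (Pdgfrb-Cre against Pdgfra-Cre, 5), and at a minimum of 100 CPM the latter pair numbered 8 and 3. The 1 lineage with a lower mt- share in Pdgfrb-Cre than in Pdgfra-Cre became 0 at no more than 10% mt- UMIs and 0 at 1000 genes or more. The mt- to nuclear ratio was lower there in 1 lineage without the mt- limit and 1 with means over cells, against 0.

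For edgeR, 2 settings were chosen after seeing the data: library totals without TMM, and ribosomal protein genes left out. For endothelial against T cells, nuclear members called higher numbered 11, but 30 on library totals, 7 under a marker UMI gate and 7 to 9 without 1 library; those lower 16, but 1 on library totals and 0 to 13 without 1 library; mt- genes lower 8, but 0 with no library term, 1 on library totals, 4 with no mt- limit and 0 to 10 without 1 library. For stromal against T cells, nuclear higher numbered 11, but 7 without the low-count filter, 24 on library totals, 6 under the gate and 2 to 10 without 1 library. Nuclear lower numbered 10, but 4 on library totals and 4 to 9 without 1 library, and mt- lower 11, but 7 with no library term and 4 to 11 without 1 library.

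For macrophages against T cells, nuclear higher numbered 12, but 22 with DESeq2, 34 on library totals and 4 to 9 without 1 library. Nuclear lower numbered 1, but 0 without the low-count filter, 0 on library totals, 2 at clustering resolution 2 and 0 to 2 without 1 library. There mt- lower numbered 10, but 2 with no library term, 3 on library totals, 6 under the gate and 0 to 10 without 1 library. For endothelial against stromal cells, nuclear higher numbered 5, but 9 with DESeq2, 11 on library totals, 3 without the low-count filter, with no library term, without ribosomal protein genes, at resolution 0.5 and under the gate, and 2 to 3 without 1 library. Nuclear lower numbered 2, but 5 with DESeq2, 1 without the low-count filter, with no library term and on library totals, 4 at resolution 0.5 and 0 to 1 without 1 library, and mt- higher 0, but 3 on library totals. Apart from the smaller number of libraries or features where these were left out, the cause was not tested. Where 1 library was left out, the spread rests on the other two. Few wild-type stromal cells (216) and macrophages (67 in that library) limit rare members.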
